A study of Mus musculus with 4 samples.

Results

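The genes described here make, move, sense or destroy prostaglandins in cultured bronchoalveolar stem cells (BASCs). BASCs are lung cells held to self-renew and to give rise to airway and alveolar epithelium. The group holds 10 genes, Slco2a1, Ptgs1, Ptgs2, Ptges, Ptgis, Hpgd, Ptger2, Ptger4, Ptgfr and Abcc4. A probe set, the group of short probes that reports a transcript on the array, was taken where the platform annotation gave exactly that symbol, and every such probe set was kept. This found 21 of 45037 probe sets, for 9 of 18193 annotated genes. No probe set carries Ptgs1 alone, and Ptgs1 is not analysed here. The genes were selected on earlier results of the same comparison, the difference between Myc-depleted and control arrays, so their differences here are descriptions with no test.

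The question was which mRNAs change when c-Myc is lowered in BASCs. The control group and the Myc-depleted group each have 2 arrays. All the cells were sorted as CD31neg, CD45neg, CD34pos and Sca-1pos from lungs of ICR mice aged 4 to 6 weeks and plated on irradiated mouse embryonic fibroblasts. The study describes later passages both on such feeders and on collagen, and which the arrayed cells had is not stated. The treatment text in the labels, the same for all the arrays, describes lentiviral delivery of a c-Myc shRNA, puromycin selection over several generations and stable lines. Whether both Myc-depleted arrays came from such lines, and with which hairpin, is not stated array by array. The controls are labelled control and described as wild type, and whether those on the arrays carried a control virus or met puromycin is not stated. Whether a group's arrays stand for separate cultures or infections is not given. Any p-value therefore measures only the spread between arrays, which may be technical.

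Prostaglandins are short-range lipid signals. Phospholipase A2 frees arachidonate from membranes, the cyclooxygenases encoded by Ptgs1 and Ptgs2 turn it into prostaglandin H2, and terminal synthases make the active products from that. Ptges makes prostaglandin E2 and Ptgis makes prostacyclin. Abcc4 pumps prostaglandins out of the cell and Slco2a1 carries them back in, where Hpgd, the 15-hydroxyprostaglandin dehydrogenase, starts their inactivation. Ptger2 and Ptger4 are the prostaglandin E2 receptors EP2 and EP4, which raise cyclic AMP, and Ptgfr is the prostaglandin F2α receptor FP. In lung these signals act on airway and vessel tone, inflammation and repair.

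Promoter sequences are shown for Slco2a1 and Ptgs2, the genes with the largest differences in each direction, and for the other members that hold a searched motif. They are RefSeq sequences of build GRCm38.p6, written 5′ to 3′ on the gene's own strand, with the annotated start as position 1. Windows of 300 bases, 250 before the start and 50 from it on, were found for 9 of 10 members, 10 windows in all, and none was found for Ptgis. Both strands were searched for CACGTG (the E-box bound by Myc with Max, its own reverse complement), TGACG (the cyclic AMP response element half-site) and TATAAA, and capitals mark the matches. The Slco2a1 stretch is chr9:103008387-103008486 on the + strand, positions -100 to -1, with TATAAA at -29 to -24. The Ptgs2 stretch, chr1:150100035-150100064 on the + strand, lies just after the annotated start and holds CACGTG at 17 to 22, overlapped by TGACG read on the other strand at 14 to 18. The Abcc4 stretch, chr14:118706407-118706436 on the - strand, holds CACGTG at -205 to -200. It belongs to 1 annotated Abcc4 start, and the window of the other Abcc4 start holds none of the searched motifs. The Hpgd stretch, chr8:56294544-56294573 on the + strand, holds TATAAA at 5 to 10.
Slco2a1: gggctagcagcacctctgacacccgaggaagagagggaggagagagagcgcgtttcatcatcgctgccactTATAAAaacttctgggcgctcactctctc
Ptgs2: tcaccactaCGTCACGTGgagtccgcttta
Abcc4: acgggtctcaagCACGTGcggcttccccgc
Hpgd: cacggagtgggcTATAAAagctgctgcggc

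CACGTG was in 2 of the 10 member windows and in 7.15% of all 32851 windows of that length. TGACG was in 1 member window and in 20.8% of all windows. TATAAA was in 2 member windows and in 13.6% of all windows. The windows of Ptgs1, Ptges, Ptger2, Ptger4 and Ptgfr held none of the 3 motifs. A match says only that the letters are there.

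Values are log2 expression as deposited, so a difference of 1 is a 2-fold difference, and the array medians lay between 5.48 and 5.49. Probe sets with a mean under 5.08, the 40th percentile, were treated as low and left out of tests. The targeted gene checked the labels. Myc, by its single probe set 1424942_a_at, read 9.21 and 9.69 in the controls and 8.35 and 8.50 in the Myc-depleted arrays, a difference of -1.02 (SE 0.21) with an adjusted p of 0.363 in limma. The fit has 2 residual degrees of freedom. Of the genes used to sort and stain BASCs, Sftpc, Scgb1a1 and Cd34 lay between 3.66 and 4.75 on all arrays, all under the threshold. Ly6a (Sca-1) is not analysed here. By immunostaining, the study found SP-C and CCA, the proteins of Sftpc and Scgb1a1, in most colonies after passage. Over the threshold were 10 of 11 fibroblast, 8 of 8 smooth muscle, 6 of 11 leukocyte, 5 of 14 lung epithelial, 3 of 12 endothelial and 2 of 6 mesothelial markers. The levels of these lists were far apart. In the same order, the median level over all arrays was 12.63, 8.97, 5.27, 4.94, 4.55 and 4.67. The arrays also differed in the poly-A spike-ins, RNAs added before labelling, whose 3′ minus 5′ difference grows when copies stop short of the 5′ end. That difference was 1.89 for control 1, 3.12 for control 2, 3.64 for Myc-depleted 1 and 1.78 for Myc-depleted 2, so the replicates of a group stood apart and control 1 lay nearest Myc-depleted 2.

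Slco2a1 stood higher and Ptgs2 and Ptgis lower in both Myc-depleted arrays, while the probe sets of Abcc4, Ptger2 and Ptger4 overlapped between the groups. Of the 21 probe sets, 10 were higher in both Myc-depleted arrays than in both controls, 3 were lower and 8 overlapped. With values under the threshold raised to it, 8 were higher and 3 lower, since Hpgd 1419905_s_at and Ptgfr 1440777_x_at lie wholly under it. Over all 45037 probe sets, 21.9% were higher in that sense and 16.4% lower. The 10 higher probe sets are 4 of Slco2a1, 2 of 3 of Ptges, 3 of 5 of Ptgfr and 1 of 2 of Hpgd. The 3 lower ones are both of Ptgs2 and the single one of Ptgis. A non-overlapping difference of more than 2-fold was seen upward in 4 probe sets, all of Slco2a1, against 0.457% of all probe sets, and downward in 2, both of Ptgs2, against 0.373%. For Slco2a1 1420914_at, whose controls were under the threshold, the log2 difference of 1.02 became 0.73 with those values raised to it and 0.94 without control 1, both under 2-fold. These counts rest on the values that chose the genes, and nothing is read from them. In limma, 0 of the 27022 probe sets tested passed an adjusted p of 0.05 (0%). The analysis of variance named in the methods, adjusted in the same way, also gave 0. The study's own rule names no adjustment (fold above 2 and p under 0.05), and by it 207 passed here. At an unadjusted p of 0.05 limma gave 2726 (10.1%) and the analysis of variance 2521. In cultures measured in bulk, fewer cells of a type and less RNA per cell cannot be told apart.

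**Figure D1:**
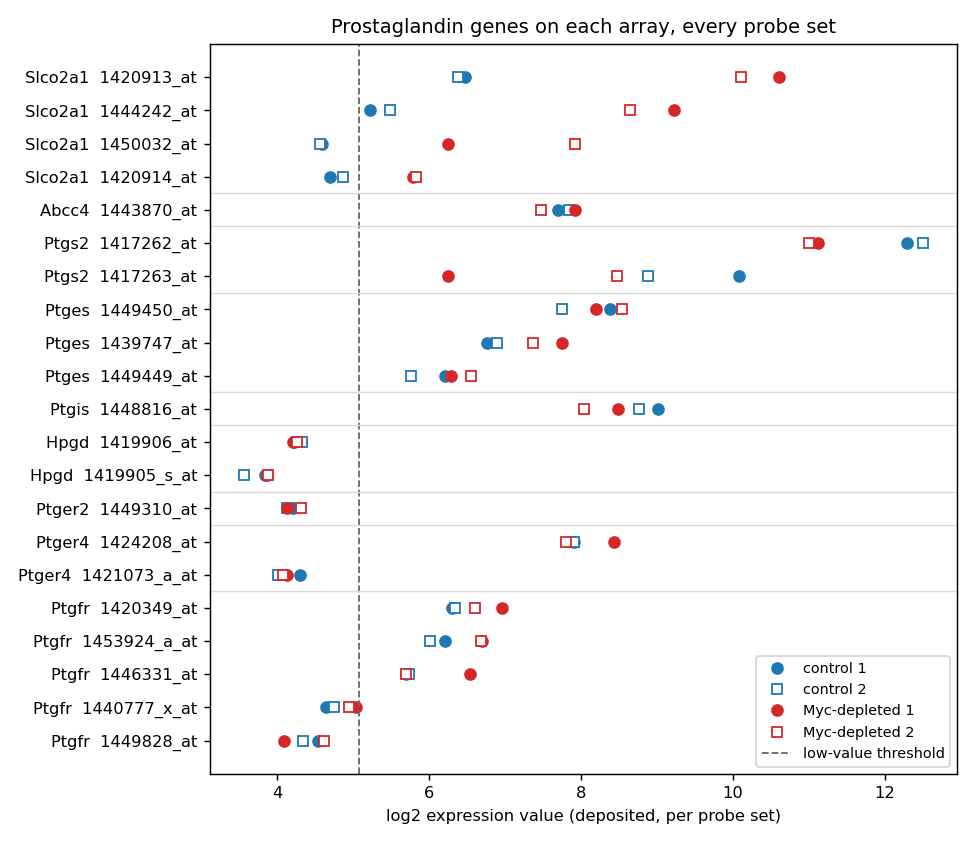
Each row is a probe set of a prostaglandin gene and each point the deposited log2 value on 1 array, with controls in blue, Myc-depleted arrays in red, filled circles for replicate 1 and open squares for replicate 2. The dashed line is the low-value threshold of 5.08. The 4 Slco2a1 rows show red points right of blue ones, both Ptgs2 rows show them left of blue ones, and the Hpgd and Ptger2 rows lie left of the line.

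Slco2a1, the uptake transporter, was measured by 4 probe sets and stood higher in every one. Probe set 1420913_at read 6.48 and 6.39 in the controls and 10.60 and 10.11 in the Myc-depleted arrays. Probe set 1444242_at read 5.22 and 5.49 in the controls against 9.23 and 8.65. In both, every Myc-depleted value lay over 3 log2 units above every control value. The group means of 1420913_at were 6.43 ± 0.06 and 10.36 ± 0.35 (SD, n = 2), a difference of 3.93 or 15.2-fold, the highest of all 45037 probe sets. The difference of 1444242_at was 3.58, or 11.99-fold, the next highest.

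The other Slco2a1 probe sets had both controls under the low-value threshold. Probe set 1450032_at read 4.60 and 4.56 in the controls and 6.26 and 7.93 in the Myc-depleted arrays, a difference of 2.51 or 5.69-fold. Its Myc-depleted replicates had an SD of 1.18 (n = 2), and the higher was Myc-depleted 2. Probe set 1420914_at read 4.70 and 4.86 against 5.79 and 5.83, a difference of 1.02 or 2.03-fold. With values under the threshold raised to it, these differences were 2.01 and 0.73. The 4 probe sets thus had one direction and sizes from 1.02 to 3.93, with a mean of 2.76.

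Slco2a1 is known from endothelium and from lung epithelium. Of 12 endothelial markers 3 were over the threshold, Pecam1, Cdh5, Tek, Tie1 and Vwf were under it, and the list's summed level (log2 of the sum of the linear values) was 8.38 to 8.43 in the controls and 8.40 to 8.42 in the Myc-depleted arrays. Of 14 lung epithelial markers 5 were over the threshold, while Nkx2-1, Cdh1 and Krt18 were under it. Those over it were Epcam, Abca3, Hopx, Sftpb and Aqp5, which differed by 0.65, 0.33, 0.14, 0.04 and -0.11. A second Epcam probe set, under the threshold, differed by -0.13. Cyp2f2, whose mean was under the threshold, read 4.58 and 4.35 in the controls against 5.26 and 5.44, a difference of 0.88. Among the 14, 5 were higher without overlap (21.9% of all probe sets) and 2 lower (16.4% of all). The summed level was 9.45 on both controls against 9.67 to 9.77. The part of the epithelial markers in the Slco2a1 difference was not tested.

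Abcc4, the exporter, was measured by 1443870_at alone. It read 7.69 and 7.85 in the controls and 7.91 and 7.47 in the Myc-depleted arrays, so the Myc-depleted arrays lay on either side of the controls. The difference was -0.08, smaller than the spread of 0.45 between the Myc-depleted arrays.

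Ptgs2, the inducible cyclooxygenase also called COX-2, was lower in both Myc-depleted arrays by both probe sets. Probe set 1417262_at read 12.29 and 12.51 in the controls and 11.12 and 11.00 in the Myc-depleted arrays. The groups did not overlap, and the replicates of each lay close together. The means were 12.40 ± 0.15 and 11.06 ± 0.08 (SD, n = 2), a difference of -1.34, or 2.53-fold lower. Counted from the lowest, this difference had rank 72 of the 45037 probe sets.

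Probe set 1417263_at of Ptgs2 had the larger difference and the larger spread. It read 10.08 and 8.88 in the controls and 6.25 and 8.48 in the Myc-depleted arrays. In each group the array with the larger spike-in difference, control 2 and Myc-depleted 1, had the lower value. Between Myc-depleted 2 and control 2 the difference was only -0.40. The mean difference was -2.11, or 4.33-fold lower, and it was -1.0002 without Myc-depleted 1 and -3.23 without Myc-depleted 2. Between the arrays nearest in the spike-in measure it was -1.60 (control 1 and Myc-depleted 2) and -2.63 (control 2 and Myc-depleted 1). With the spike-in measure as a covariate the difference was -1.88, and the level fell by 1.12 per unit of that measure. For 1417262_at the covariate gave -1.36.

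**Figure D2:**
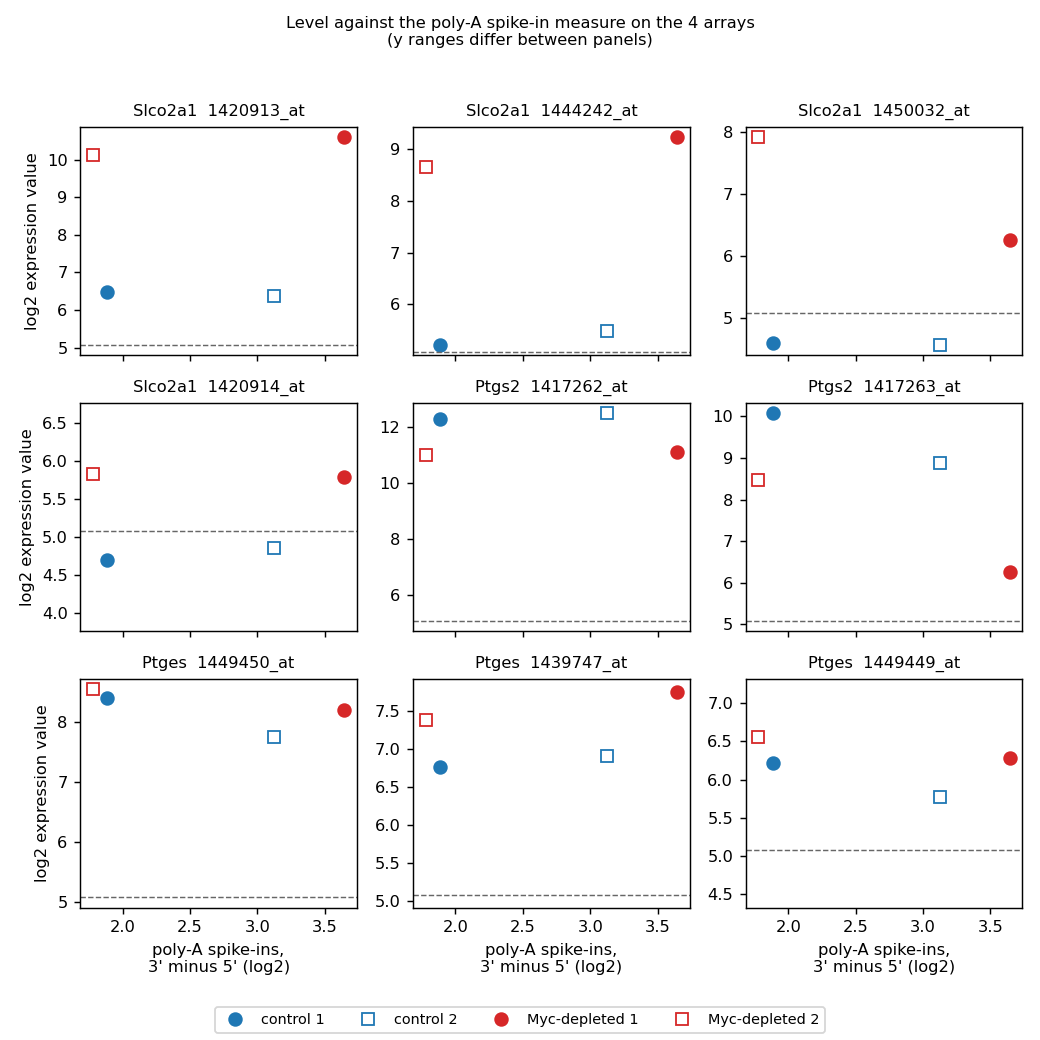
Each panel plots the log2 value of a Slco2a1, Ptgs2 or Ptges probe set on the 4 arrays (y axis) against the 3′ minus 5′ log2 difference of the poly-A spike-ins (x axis), with controls in blue and Myc-depleted arrays in red. The dashed line is the low-value threshold of 5.08, and y ranges differ between panels. In Ptgs2 1417263_at and Slco2a1 1450032_at the value is lower toward the right within the Myc-depleted group, while Slco2a1 1420913_at and Ptgs2 1417262_at stay nearly level within each group.

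The terminal synthases went different ways. Ptges, the inducible microsomal prostaglandin E synthase, had 3 probe sets with positive differences. Probe set 1439747_at read 6.76 and 6.90 in the controls and 7.75 and 7.37 in the Myc-depleted arrays, with no overlap and a difference of 0.73, or 1.66-fold. Probe set 1449449_at read 6.21 and 5.76 against 6.29 and 6.56, where the groups were separated by only 0.08, and differed by 0.43. Probe set 1449450_at read 8.39 and 7.74 against 8.19 and 8.53, so control 1 lay between the Myc-depleted arrays, and differed by 0.30. Without control 2 that last difference was -0.02 and that of 1449449_at was 0.21. Without control 1 they were 0.62 and 0.66.

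Ptgis, the prostacyclin synthase, was measured by 1448816_at. It read 9.02 and 8.76 in the controls and 8.48 and 8.04 in the Myc-depleted arrays, lower in both. The means were 8.89 ± 0.18 and 8.26 ± 0.31 (SD, n = 2), a difference of -0.63, or 1.54-fold lower, and the smallest single comparison, Myc-depleted 1 minus control 2, was -0.28. Without Myc-depleted 2 the difference was -0.40. Ptgis is known from vascular cells, smooth muscle among them. Of the 8 smooth muscle markers 6 were lower in both Myc-depleted arrays (16.4% of all probe sets) and 1 higher (21.9% of all). The higher one was Myh11, by 0.09, and Des overlapped, at 0.03. Some of the lower ones barely separated. Between Myc-depleted 2 and control 2, Acta2, Lmod1, Actg2 and Cnn1 differed by only -0.0015, -0.006, -0.02 and -0.03. Tagln and Smtn differed there by -0.54 and -0.62. The 8 had a median difference of -0.41 and a summed level of 14.9 to 15.1 in the controls against 14.5 to 14.8. The part of these markers in the Ptgis and Ptgs2 differences was not tested.

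Hpgd, the inactivating enzyme, was low on every array. Probe set 1419906_at read 4.23 and 4.33 in the controls and 4.21 and 4.26 in the Myc-depleted arrays, with overlapping groups. Probe set 1419905_s_at read 3.84 and 3.56 against 3.87 and 3.88, a difference of 0.17 in which the nearest arrays were 0.03 apart. All these values lay under the threshold, and no level or difference can be set on them.

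The prostaglandin E2 receptors showed no separation of the groups. Ptger2, by 1449310_at, read 4.21 and 4.13 in the controls and 4.13 and 4.32 in the Myc-depleted arrays, all under the threshold. Ptger4 was over the threshold by 1424208_at, with 7.91 and 7.90 against 8.44 and 7.80. Only Myc-depleted 1 was higher there, and the difference of 0.21 turned to -0.11 without that array. The other Ptger4 probe set, 1421073_a_at, lay between 4.01 and 4.31 on all arrays.

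Ptgfr, the FP receptor, had 5 probe sets, of which 3 were over the threshold. Probe set 1453924_a_at read 6.21 and 6.02 in the controls and 6.70 and 6.69 in the Myc-depleted arrays, a difference of 0.58 or 1.49-fold. Probe set 1420349_at read 6.30 and 6.35 against 6.96 and 6.60, a difference of 0.46 or 1.37-fold, which became 0.28 without Myc-depleted 1. In both of these the groups did not overlap. Probe set 1446331_at read 5.70 and 5.74 against 6.54 and 5.70, so only Myc-depleted 1 stood out, and its difference of 0.40 became -0.02 without that array. Under the threshold, 1440777_x_at differed by 0.29 and 1449828_at by -0.09. The Ptgfr probe sets thus differed by less than 2-fold wherever they were measured.

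Among the members, 15 of 21 probe sets passed that threshold. They cover 7 of the 9 genes measured, and Hpgd and Ptger2 had none that passed. The 6 left out lay between 3.56 and 5.03 on all arrays. Taking for each gene the probe set of highest mean, Slco2a1 and Ptgfr were higher without overlap, Ptgs2 and Ptgis were lower without overlap, and Ptges, Ptger4, Abcc4, Hpgd and Ptger2 overlapped. The mean difference over all probe sets of a gene was 2.76 for Slco2a1, 0.49 for Ptges, 0.33 for Ptgfr, -0.63 for Ptgis and -1.73 for Ptgs2. The remaining genes lay between -0.08 and 0.08.

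Setting each Myc-depleted array against each control gives 4 single comparisons. For Slco2a1 1420913_at they ran from 3.64 to 4.22, and for Ptgs2 1417262_at from -1.51 to -1.17. The ones of Slco2a1 1450032_at fell into a pair near 1.66 and 1.69, with Myc-depleted 1, and a pair near 3.33 and 3.36, with Myc-depleted 2. For Ptgs2 1417263_at they ran from -3.82 to -0.40, so its size depended on which arrays were compared while its sign did not. With the spike-in covariate, the slopes on that measure were -0.63 for Slco2a1 1450032_at and -1.12 for Ptgs2 1417263_at, and between -0.29 and 0.32 for the other probe sets.

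**Figure D3:**
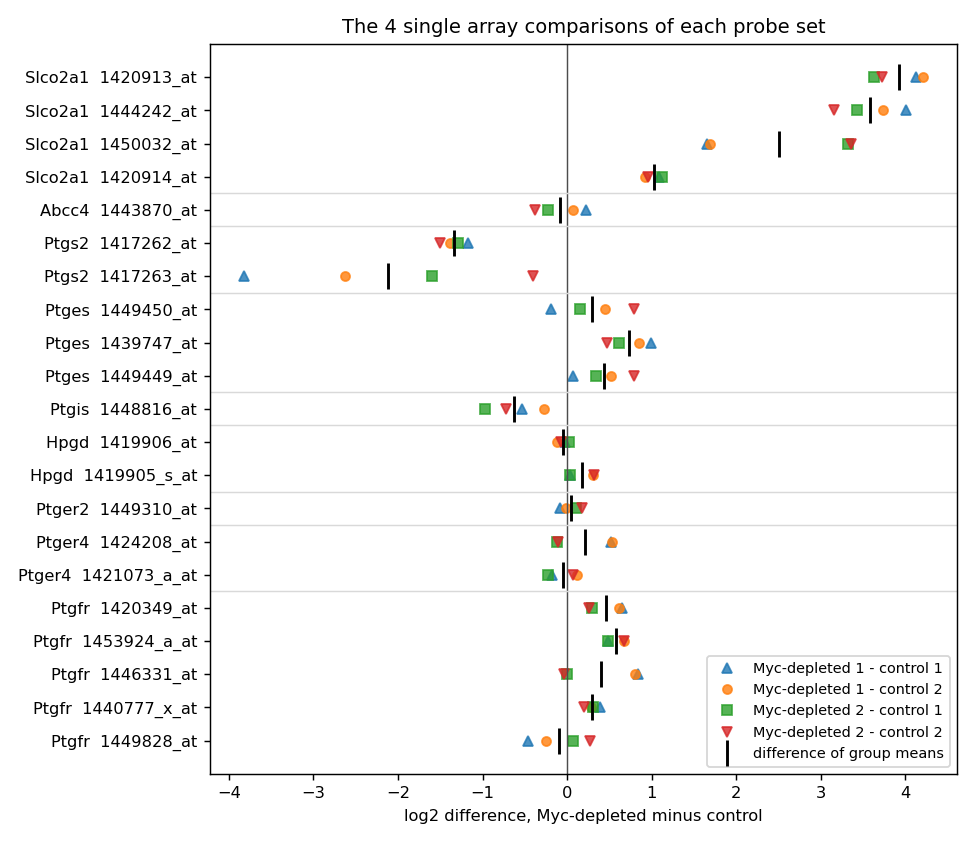
Each row is a probe set of a prostaglandin gene, the x axis is the log2 difference of Myc-depleted minus control, each symbol is 1 of the 4 single array comparisons and the black bar is the difference of the group means. The Slco2a1 symbols all lie right of 0 and the Ptgs2 and Ptgis symbols left of it, while those of Abcc4, Ptger4 and Ptger2 fall on both sides.

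Around the members, 40 further genes of prostanoid release, synthesis, transport, sensing and inactivation were examined, each by its tested probe set of highest mean. Of these 37 had a probe set and 26 were tested. In limma 0 of 26 passed an adjusted p of 0.05, the lowest adjusted p being 0.177. At an unadjusted p of 0.05, 2 were higher and 2 lower in limma, where 10.1% of all probe sets fell under that p, and 5 did so by the analysis of variance. The differences were positive for 15 and negative for 11, with a median of 0.07 beside 0.02 over all 12589 genes tested.

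Transport and inactivation held 3 of those 4 genes, given here as values. Slco4a1, an organic anion transporter of the same family as Slco2a1, read 6.79 and 6.71 in the controls and 5.14 and 5.16 in the Myc-depleted arrays by 1438160_x_at, a difference of -1.60 (SE 0.11, adjusted p = 0.177 in limma). Its other probe set, 1455803_at, differed by -0.51. Slco2b1 and Slco3a1 differed by 0.07 and 0.06. Ptgr2, which reduces 15-keto prostaglandins downstream of Hpgd, read 8.78 and 8.84 against 9.35 and 9.18, a difference of 0.46 (SE 0.13, adjusted p = 0.421 in limma). Its probe set 1453156_s_at differed by 0.44 without overlap. Overlapping were 1429474_at at 0.25, 1451744_a_at at 0.05, 1443244_at at -0.06 and, under the threshold, 1459291_at at 0.12. Cbr3, a carbonyl reductase, read 9.94 and 9.997 against 10.34 and 10.35, a difference of 0.38 (SE 0.11, adjusted p = 0.437 in limma).

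Arachidonate release had 8 tested genes, 3 with positive and 5 with negative differences. Plaa, an activator of phospholipase A2, read 10.39 and 10.32 in the controls and 9.87 and 9.97 in the Myc-depleted arrays, a difference of -0.43 (SE 0.12, adjusted p = 0.411 in limma). Its probe sets 1435001_at and 1444647_at differed by -0.18 and -0.39, both with overlapping groups. Under the threshold, its probe set 1426019_at differed by 0.15. Pla2g4a, the cytosolic phospholipase A2 that feeds the cyclooxygenases, read 11.43 and 11.45 against 11.12 and 11.18, a difference of -0.29 (SE 0.11, adjusted p = 0.515 in limma). The 6 other terminal synthases tested lay between -0.16 and 0.30, Ptges2 among them at 0.08. The other receptors tested were Tbxa2r at 0.20, Ptgdr at 0.11 and Ptger1 at -0.01, and Ptger3, Ptgdr2 and Ptgir were under the threshold.

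**Figure D4:**
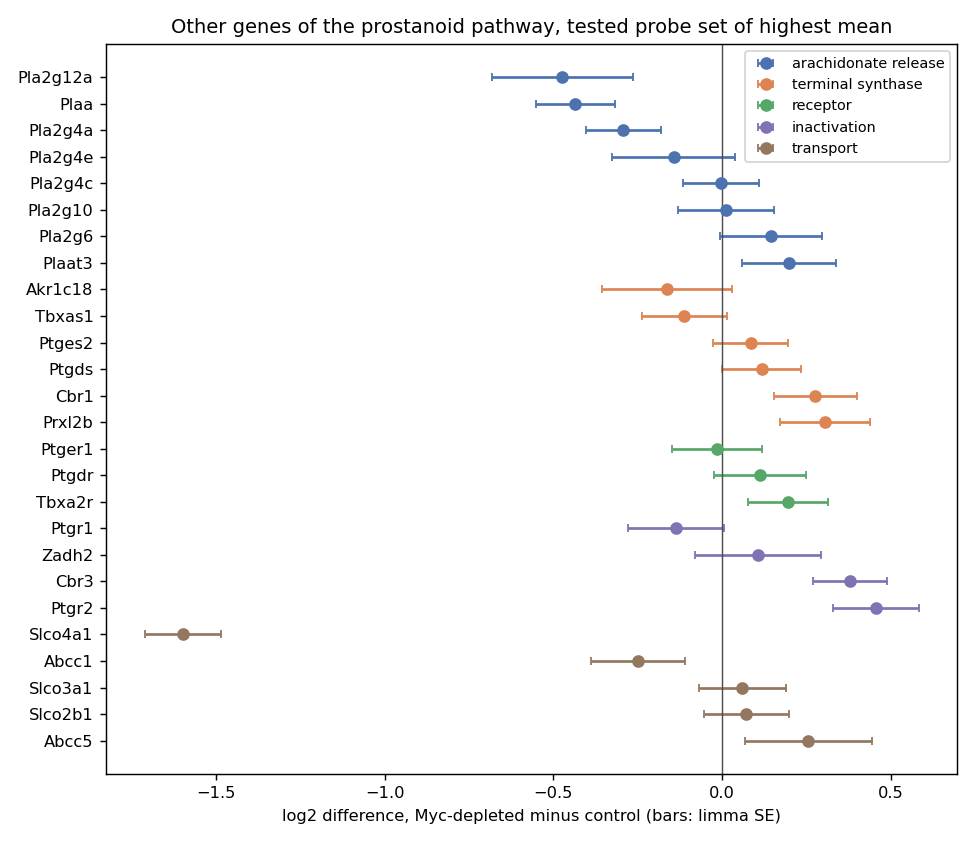
Points are the log2 differences, Myc-depleted minus control, of the 26 tested genes of the prostanoid pathway outside the described group, coloured by role, with the limma SE as bars. Slco4a1 lies apart at -1.60, and the other genes lie between -0.47 and 0.46.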

How the data were processed

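RNA of 4 samples, 2 labelled control and 2 labelled Myc-depleted, was measured by the authors on an Affymetrix mouse genome array. The deposited values are log2 expression per probe set, normalized by the authors in Partek 6.4. The study's methods name the Robust Multichip Average and the submitters' processing notes name GCRMA, and which of these made the table was not settled. Of 45101 probe sets 64 array controls were left out. In the platform annotation 34945 of the others had 1 gene symbol, 932 several and 9160 none. Members and lists were chosen with earlier results of these data known. The 27022 probe sets with a mean at or above 5.08 (the 40th percentile) were fitted in limma 3.58.1 under R 4.3.3, with moderated variances, no replicate block and Benjamini-Hochberg adjustment over all of them, after tests on simulated data. Members have no test. Named were every member and Myc with every probe set, list genes by smallest unadjusted p (up to 12) or as a role needed, and defining markers. A list gene was taken by its tested probe set of highest mean. Alternatives were no filter, a stricter one (60th percentile), quantile normalization, a floor, a trended robust fit, the methods' ANOVA, gene means, the replicate block, the spike-in covariate and leaving out each array. No pair of arrays was identical. The number of arrays limits the precision.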

Additional observations from a re-analysis of the deposited data

How the results depend on the processing

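With 2 arrays a group the fit rests on 2 residual degrees of freedom (1 with the spike-in covariate) and replicates that stood apart, and values under the low-value threshold have no order. The 0 calls over all probe sets became 207 under the methods' ANOVA thresholds (2-fold, unadjusted p under 0.05), 22 on gene means and 3224 with the spike-in covariate. Of the 26 other prostanoid pathway genes tested, 1 (Slco4a1) was called under the ANOVA thresholds, beside 207 of all 27022 probe sets. With the spike-in covariate 4 of the 26 were called (Slco4a1, Plaa, Ptgr2 and Pla2g12a), beside 3224 of all 27022. Nothing about the pathway is read from these counts. With that covariate Myc differed by -1.04 with an adjusted p of 0.0162 in limma. The cause was not tested. Adjusted p for Myc otherwise ran from 0.146 (gene means) to 1.0. On gene means Slco2a1 differed by 2.76 and Ptgs2 by -1.73, since these average all their probe sets. At the floor 8 member probe sets were higher without overlap and 3 lower. Leaving out 1 array gave 10 to 13 member probe sets higher without overlap and 4 to 6 lower, against 3 lower with all arrays. The count of 6 was without Myc-depleted 1 and without Myc-depleted 2. With fewer arrays any probe set separates more easily, and the share over all probe sets was not counted there. Nothing is therefore read from these counts. On leaving out 1 array Myc differed by -1.26 to -0.79. Of 151 member values under alternatives 136 kept their sign, 6 became 0 at the floor and 9, of 8 probe sets, turned, all on leaving out an array, Slco2a1, Ptgs2 and Ptgis not among them. Whether same-numbered arrays were prepared as pairs is not stated. Their deviations correlated at -0.77, which cannot decide it, and the replicate block gave 0 calls. Pairing control 1 with Myc-depleted 2 and control 2 with Myc-depleted 1, chosen after seeing the data, gave 21 calls and 0 pathway genes.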

Other observations

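Arachidonate also feeds the lipoxygenase branch, which makes leukotrienes. Of its 16 listed genes 14 had a probe set and 7 were tested, and 0 passed an adjusted p of 0.05 in limma, with 1 at an unadjusted p of 0.05 in limma (10.1% of all probe sets tested) and 1 in the methods' ANOVA. That gene was Ggt5, which trims leukotriene C4 to D4. By its probe set of highest mean, 1439420_x_at, it read 6.98 and 6.83 in the controls and 7.33 and 7.26 in the Myc-depleted arrays, a difference of 0.39 (SE 0.12, adjusted p = 0.457 in limma). Its probe set 1418216_at read 4.53 and 4.69 against 6.69 and 6.03, a difference of 1.75 (SE 0.26, adjusted p = 0.305 in limma), and 1455747_at, which was not tested, differed by 1.58. In both of these probe sets the controls were under the low-value threshold. Thus 1418216_at entered the test only through its Myc-depleted values, and nothing is read from its p. Alox5, the 5-lipoxygenase, differed by 0.07 and Lta4h, which makes leukotriene B4, by 0.24.

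Of 12 genes known to respond to cyclic AMP, 9 were tested and 0 passed an adjusted p of 0.05 in limma, with 2 at an unadjusted p of 0.05 in limma (10.1% of all probe sets tested) and 0 in the methods' ANOVA. Those were Rgs2, a brake on Gq-coupled receptors, which read 5.82 and 5.62 in the controls against 6.51 and 6.12, and Pde4d, a cyclic AMP phosphodiesterase, which read 8.88 and 8.82 against 9.18 and 9.41. Nr4a1 read 9.22 and 10.37 against 10.14 and 8.98, with overlapping groups. Of 17 transcription factors and RNA-binding proteins that act on Ptgs2, 15 were tested and 0 passed an adjusted p of 0.05 in limma, with 0 at an unadjusted p of 0.05 in limma or the ANOVA. Cebpb differed by 0.58 and Egr1 by -0.82, both with overlapping groups. Of the 15, 2 were higher without overlap (21.9% of all probe sets) and 3 lower (16.4% of all). Among these Cebpd differed by 0.48, Creb1 by -0.52 and Elavl1 by -0.34.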
